A study of Mus musculus with 12 samples.

Results

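The genes described here are chemokine ligands other than Ccl3 and Ccl4, together with Mif, as counted in microglia of the mouse hippocampus. The list names 10 genes, picked by gene name, with earlier results of these data known: Ccl2, Ccl5, Ccl7, Ccl12, Ccl24, Cxcl9, Cxcl10, Cxcl12, Cxcl13 and Mif. The count table gave values for 9 of them among its 545 immune genes, and Ccl5 is not analysed here. All 9 matched a RefSeq accession with the same symbol.

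Microglia had been sorted from the hippocampus of 28-day-old male Balbc mice, after a Percoll gradient, and each of the 12 samples came from a different litter. The control group held 6 samples. The group with brief daily separation (BDS) also held 6, from pups kept apart from the mother for 15 min each day between postnatal days 1 and 21. How control litters were handled, and which surface markers set the sort gate, are not given in the sources used here. RNA (2 ng) was amplified in 5 PCR rounds and read on a NanoString nCounter immune panel, which counts 1 fluorescent barcode per hybridized transcript and so gives a count for each gene without sequencing.

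Chemokines are small secreted proteins that steer leukocytes along concentration gradients by binding receptors coupled to G proteins. The CC and CXC families are named for the spacing of conserved cysteines near the start of the mature protein. In the brain, microglia and astrocytes can make many of them when stimulated, while Cxcl12 has roles in development and in keeping blood stem cells in the marrow. Mif (macrophage migration inhibitory factor) is not a chemokine by structure, but it binds Cd74 and the chemokine receptors Cxcr2 and Cxcr4.

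Total counts ran from 893936 to 1409376 in control samples and from 641756 to 1171355 in BDS samples. Values below are normalized counts, that is, barcode counts divided by a sample factor from 6 housekeeping genes, and they compare samples for 1 gene and not 1 gene with another, since probes differ in efficiency. The background limit of a sample was the mean of its negative-control probes plus 2 SD, which was 15.3 to 21.3 raw counts in controls and 18.2 to 21.8 in BDS. In BDS 21, BDS 25 and BDS 55 the ratio of the housekeeping probes Rpl19 and Polr2a was 0.79, 0.61 and 0.47, against 0.11 to 0.27 in the other 9 samples. Their housekeeping factors were also the lowest (0.61, 0.65 and 0.85), though control 5 was close to the last at 0.87. Their summed microglia markers were the highest (286742 to 332744, against 251158 to 281378), but the single markers differed. Csf1r, Trem2 and Tyrobp were each highest in these 3. Runx1 was lowest in them (1923 to 2846, against 3571 to 4000 in the others), and the rest of the list did neither. Results are therefore also given without these 3, which removes BDS samples only. All 8 microglia markers looked for were above background, but markers listed for other cell types were present too. Pecam1 and Cdh5 (endothelial), Cd5 (T cells), Cd79b (B cells), Prf1 and Klrk1 (NK cells), Ccr2 (monocytes), Ceacam1 (neutrophils) and Mbp and App (neurons and glia) were above it in 12 of 12 samples, and Cd4, Cd8b1 and Cd79a in 6. Others on those lists, Cd3d, Cd3e, Pax5, Cd163, Msr1 and Sele, were above it in 0 of 12. Microglia can express some of these genes, and the part of other cells in the counts was not tested. In these sorted but bulk samples, fewer cells of a type and less RNA per cell cannot be told apart.

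Of the 9 genes, 7 lay above background in at least 40% of samples and were tested. Ccl2, Ccl12, Ccl24 and Mif were above it in 12 of 12 samples, Ccl7 and Cxcl12 in 11, and Cxcl10 in 10. Cxcl9 was above it in 1 sample and Cxcl13 in 0. The authors' deposited table gives 92% of samples above background for Cxcl10 and Cxcl12, 100% for the other 5, 17% for Cxcl9 and 0% for Cxcl13. For Ccl7, Cxcl9 and Cxcl10 these shares are higher than the counts found here, and the reason for the difference was not tested.

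BDS samples were not separated from controls by any of the 7 genes. In edgeR's quasi-likelihood test 0 of 7 passed the adjusted threshold of 0.05, as did 0% of the 357 panel genes tested (4 of 351 without BDS 7, with 0 of the 7 among them). At an unadjusted p under 0.05 there were also 0 of 7, against 12.3% of the panel. DESeq2 with the same scaling gave 0 past the adjusted threshold. At an unadjusted p under 0.05 it gave Cxcl10 alone of the 7, beside 46 of 357 panel genes. With a pseudocount of 1 or 10, limma gave 0 of the 7 by either rule, beside 50 of 357 panel genes at an unadjusted p under 0.05. The log2 fold change (BDS over control) was below 0 for 5 of 7, against 66.1% of the panel, and the median of the 7 was -0.18 against -0.10 for all genes tested. With TMM scaling, which centres each sample on the tested genes themselves, the same 2 medians were -0.09 and -0.01, and 5 of 7 were again below 0 against 52.1% of the panel. By that scaling 8.96% of the panel was at an unadjusted p under 0.05 (3.92% lower and 5.04% higher) and 0 of the 7 were. The groups overlapped for all 7, while 1.12% of the panel had every BDS sample below every control.

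**Figure D1:**
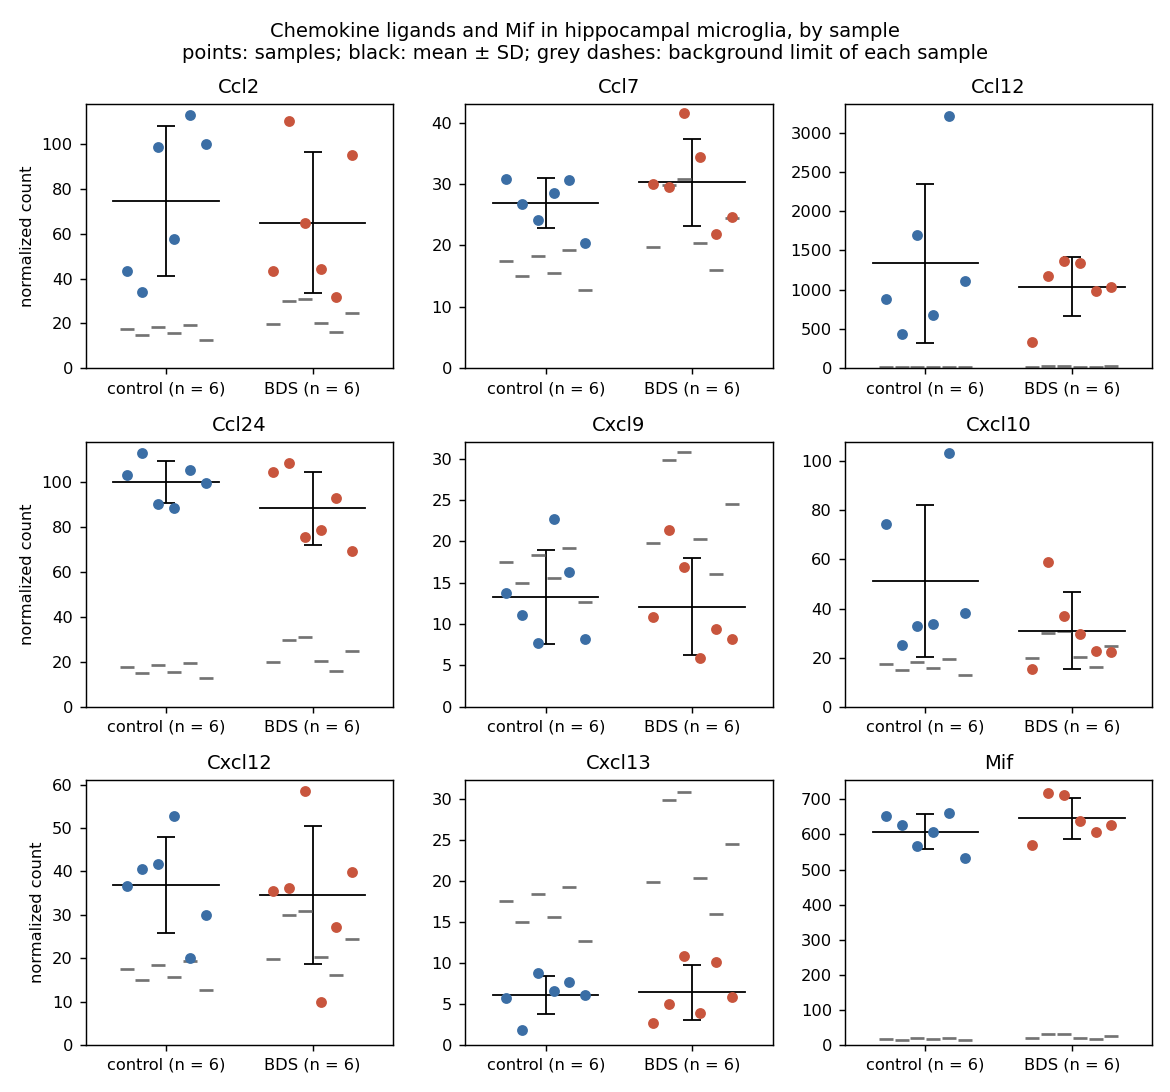
Normalized counts (vertical axis, linear, from 0) of the 9 genes in the 6 control samples (blue) and the 6 BDS samples (red). Points are samples, black lines are means with SD bars, and grey dashes mark the background limit of each sample after the same scaling. Cxcl13 lies under the dashes in every sample and Cxcl9 in all but 1, and in each panel the groups overlap.

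Ccl2, Ccl7 and Ccl12 all bind Ccr2, the receptor that draws monocytes out of the marrow and into inflamed tissue. They are near neighbours in the RefSeq gene order (Ccl2, Ccl7, Ccl11, Ccl12, GRCm38.p6). Ccl2 ran from 34.2 to 113 normalized counts in controls with a median of 78.2, and from 31.9 to 110 in BDS with a median of 54.5. Both groups thus covered almost the same range. The means were 74.5 ± 33.4 and 64.9 ± 31.3 (SD, n = 6), a log2 fold change of -0.23 ± 0.35 (SE; adjusted p = 0.73). In the BDS group Ccl2 was 64.7 to 110 in the 3 samples with low housekeeping factors and 31.9 to 44.2 in the other 3. With those 3 left out, Ccl2 gave a log2 fold change of -0.91 ± 0.39 (SE; unadjusted p = 0.042, adjusted p = 0.80).

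Ccl12 was the gene of this set that differed most from sample to sample. In controls it was 439 in control 9, 997 at the median and 3208 in control 44, a range of 7.31-fold. In BDS it was 341 in BDS 7, 1109 at the median and 1364 in BDS 25. Control 44 and control 13 lay above every BDS sample, and BDS 7 lay below every control. Group means were 1336 ± 1013 and 1040 ± 375 (SD, n = 6), with a log2 fold change of -0.36 ± 0.42 (SE; adjusted p = 0.68). That sign rested on control 44, without which the log2 fold change was 0.11 ± 0.33. Without BDS 7 it was -0.18, and without the 3 low-housekeeping BDS samples -0.59.

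Ccl7 was low and even. It ran from 20.4 to 30.9 in controls with a median of 27.7, and from 21.8 to 41.6 in BDS with a median of 29.8. The group means were 26.9 ± 4.0 and 30.3 ± 7.1 (SD, n = 6), a log2 fold change of 0.16 ± 0.18 (SE; adjusted p = 0.67). Raw counts of 18 to 39 left little room above background. A count of 18 has an exact Poisson interval of 10.7 to 28.4 at 95%, which covers counting error only and leaves out PCR amplification. With the negative-control mean subtracted the log2 fold change was -0.05.

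Ccl24 (eotaxin-2) binds Ccr3, best known on eosinophils. It was 88.5 to 113 in controls, with a median of 101, and 69.1 to 108 in BDS, with a median of 85.6. In 3 of 6 BDS samples (BDS 25, BDS 35 and BDS 55) it lay below the lowest control, while the other 3 lay within the control range. Group means were 99.8 ± 9.3 and 88.1 ± 16.2 (SD, n = 6), at a log2 fold change of -0.18 ± 0.14 (SE; adjusted p = 0.55). Cd163 and Msr1, the 2 panel genes listed for border macrophages, were above background in 0 of 12 samples, with a summed level of 9.52 to 26.3 in controls and 7.01 to 23.1 in BDS.

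Cxcl9 and Cxcl10 are induced by interferons and attract activated T and NK cells through Cxcr3. They lie close together in the genome with Art3 between them. The promoters of both and of Ccl12 are shown because Cxcl10 had the smallest p of the set, Cxcl9 is its neighbour at background, and Ccl12 varied most. Each is the 250 bases before the RefSeq start in GRCm38.p6, 5′ to 3′ on the gene's strand: Cxcl10 at chr5:92348890-92349139 (minus), Cxcl9 at chr5:92328080-92328329 (minus) and Ccl12 at chr11:82101595-82101844 (plus).
Cxcl10: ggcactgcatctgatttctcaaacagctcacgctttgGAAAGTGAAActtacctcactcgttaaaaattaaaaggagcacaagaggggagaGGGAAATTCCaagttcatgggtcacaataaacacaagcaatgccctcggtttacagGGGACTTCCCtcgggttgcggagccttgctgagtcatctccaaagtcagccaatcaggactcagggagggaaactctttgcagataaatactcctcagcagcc
Cxcl9: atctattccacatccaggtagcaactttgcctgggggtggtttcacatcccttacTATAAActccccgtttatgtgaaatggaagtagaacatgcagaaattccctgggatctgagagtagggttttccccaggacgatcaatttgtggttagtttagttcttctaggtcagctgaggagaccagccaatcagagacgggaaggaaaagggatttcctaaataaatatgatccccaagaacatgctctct
Ccl12: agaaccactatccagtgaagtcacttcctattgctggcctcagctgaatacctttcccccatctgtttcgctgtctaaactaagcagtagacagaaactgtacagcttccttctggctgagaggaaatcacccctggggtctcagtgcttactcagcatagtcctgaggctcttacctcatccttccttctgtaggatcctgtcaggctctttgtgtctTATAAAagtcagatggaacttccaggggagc
Capitals mark every match, on either strand, to the interferon-stimulated response element (GAAA, any 2 bases, GAAA), the NF-kB consensus or TATAAA. The GAS motif (TTC, any 3 bases, GAA) was also looked for. It had 0 matches in each of these windows, and 7.02% of all RefSeq promoter windows held it. The Cxcl10 window held 1 interferon element, starting 213 bases before the start, and 2 NF-kB matches, at 159 and 103 bases before it, none overlapping another. The Cxcl9 and Ccl12 windows held 0 of either, and TATAAA stood 31 bases before the start of Ccl12 and 195 before that of Cxcl9. Over all 32851 RefSeq promoter windows of the same length, 2.98% held the interferon element, 3.90% the NF-kB consensus and 12.4% TATAAA, so these are matches of letters and not measured sites. RefSeq windows for 6 of the 10 genes were given. Those of Cxcl12, Cxcl13 and Mif are not shown.

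With all samples, Cxcl10 had the largest fold change of the 7. It was 24.9 to 103 in controls, with a median of 35.9, and 15.4 to 59.1 in BDS, with a median of 26.0. Control 44 (103) and control 5 (74.3) lay above every BDS sample, and BDS 7, BDS 43 and BDS 55 lay below every control. The other samples of both groups shared the range between. Means were 51.2 ± 30.9 and 31.0 ± 15.6 (SD, n = 6), a log2 fold change of -0.76 ± 0.38 (SE; unadjusted p = 0.066, adjusted p = 0.40). Among fits with fewer samples it was -0.44 without control 44, -1.03 without BDS 21 and -1.17 without BDS 21, BDS 25 and BDS 55. By edgeR the unadjusted p was 0.20, 0.017 and 0.035, and the adjusted p was 0.64, 0.42 and 0.79. In 12 fits 1 sample was left out, and Cxcl10 was past the adjusted threshold in 0 of them. Its unadjusted p was under 0.05 without BDS 21, control 9, control 13 or control 27. So were 31 of 355, 55 of 347, 39 of 353 and 30 of 350 panel genes in those fits. Raw counts were 17 to 108, and 2 BDS samples (BDS 7 and BDS 55) were under the background limit, so the size of the difference also depends on background. With background subtracted the log2 fold change was -1.15 (limma, unadjusted p = 0.047, adjusted p = 0.34).

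Cxcl9 had raw counts of 6 to 31 and passed the limit of its sample only in control 27 (31 counts against 21.3). A difference between groups was not detectable at this depth. Group means were 13.3 ± 5.6 and 12.1 ± 5.9 normalized counts (SD, n = 6), both at the level of the negative-control probes.

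Cxcl12 is the ligand of Cxcr4 and is made by stromal and endothelial cells of many tissues. It was 20.1 to 52.6 in controls, with a median of 38.6, and 9.81 to 58.6 in BDS, with a median of 35.8. BDS 35 was the sample under background (10 raw counts) and BDS 25 the highest of all 12. Means were 36.9 ± 11.1 and 34.5 ± 16.0 (SD, n = 6), a log2 fold change of -0.13 ± 0.32 (SE; adjusted p = 0.83). It was -0.60 without the 3 low-housekeeping BDS samples and 0.07 without BDS 35. The low-housekeeping samples had a mean of 44.8 against 24.2 in the other 3, which include BDS 35. Raw counts were 22, 38 and 34 in BDS 21, BDS 25 and BDS 55, and 39, 10 and 35 in BDS 7, BDS 35 and BDS 43. After scaling, the background limit was 29.8, 30.8 and 24.5 in the first 3 and 16.0 to 20.3 in the others. Of the 5 endothelial markers on the panel 3 were above background. The summed level of all 5 was 977 to 1377 in controls and 958 to 1317 in BDS, and Pecam1 gave most of it. By edgeR, the log2 fold changes were -0.15 for Pecam1, -0.32 for Cdh5 and 0.04 for Icam2 (adjusted p = 0.54, 0.38 and 0.93). Cxcl13, which guides B cells into lymphoid follicles through Cxcr5, had 2 to 13 raw counts and did not pass the limit in any sample.

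Mif was the steadiest of the set. It was 533 to 661 in controls, with a median of 618, and 570 to 719 in BDS, with a median of 633. BDS 21 (719) and BDS 25 (712) lay above every control and the other 4 BDS samples within the control range. Means were 608 ± 50 and 646 ± 59 (SD, n = 6), at a log2 fold change of 0.09 ± 0.09 (SE; adjusted p = 0.66). Before scaling the means were 690 and 582 raw counts, higher in controls. With BDS 21, BDS 25 and BDS 55 left out it was -0.01 ± 0.10 (SE). Across the 12 samples Mif fell in rank as the housekeeping factor rose (Spearman rho = -0.78). That factor is the divisor of each value, so the 2 are not independent. Mif also ranked with the ratio of Rpl19 to Polr2a (Spearman rho = 0.69). The factor cancels in that ratio, but Mif itself is still divided by the factor. The same 3 BDS samples had the highest ratios and the lowest factors. This too is a description over 12 samples, led by those 3.

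**Figure D2:**
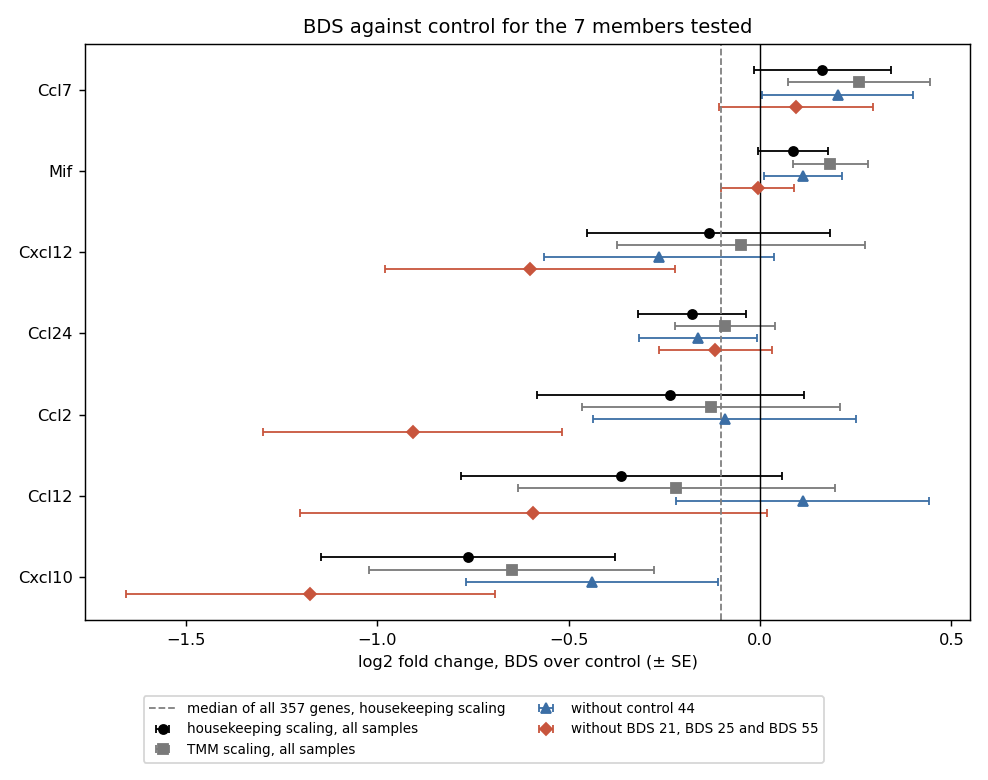
Log2 fold change of BDS over control (horizontal axis, bars are SE) for the 7 genes tested, with housekeeping scaling (black), TMM scaling (grey), without control 44 (blue) and without BDS 21, BDS 25 and BDS 55 (red). The dashed line is the median of all 357 genes (-0.10). Cxcl10 is lowest with all samples (-0.76), and Ccl12 crosses 0 without control 44 (0.11).

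The spread between samples of 1 group set these genes apart from each other. The within-group SD of the log2 normalized count was 0.89 for Ccl12, 0.73 for Cxcl10, 0.71 for Ccl2 and 0.71 for Cxcl12, against a median of 0.27 over the 357 genes, and they ranked 7, 13, 16 and 17 from the most variable. Ccl7 (0.29), Ccl24 (0.21) and Mif (0.13) ranked 157, 231 and 330. Low counts widen such a spread, so each gene was also ranked among genes of like level. Of 165 genes with a mean of at least 500 normalized counts, whose median SD was 0.19, Ccl12 was the third most variable (rank 3) and Mif ranked 140. Of 110 genes with a mean between 20 and 120, whose median SD was 0.37, Cxcl10, Ccl2 and Cxcl12 ranked 8, 10 and 11, and Ccl7 and Ccl24 ranked 89 and 105. Counting error was small for Ccl12, whose lowest count of 376 has a Poisson interval of 339 to 416. It was wide for Cxcl12, whose lowest count of 10 (BDS 35, under background) has an interval of 4.8 to 18.4. That sample stood at -1.85 in log2 from the control mean, so the rank of Cxcl12 leans on 1 reading under background. Cxcl10 was also under background in BDS 7 (17 counts, -1.54 in log2 from the control mean) and BDS 55 (19 counts, -1.01). The count of 17 has an interval of 9.9 to 27.2.

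**Figure D3:**
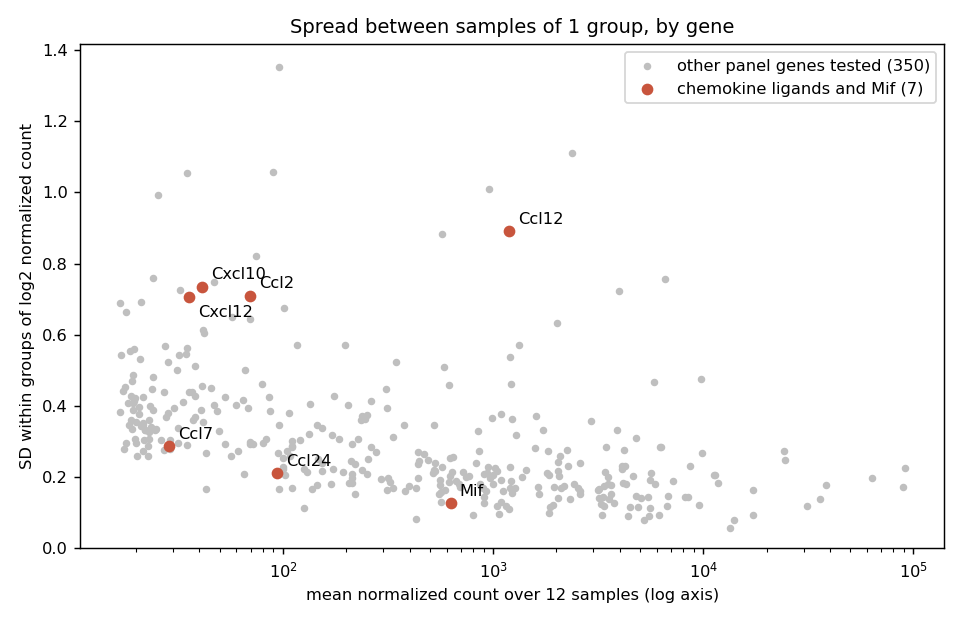
Within-group SD of the log2 normalized count (vertical axis) against the mean normalized count over 12 samples (horizontal axis, log scale) for the 357 genes tested, with the 7 chemokine and Mif genes in red. Ccl12 (0.89), Cxcl10 (0.73), Ccl2 (0.71) and Cxcl12 (0.71) lie near the upper edge for their level, and Mif (0.13) near the lower edge.

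Some samples were high or low for all of Ccl12, Ccl2 and Cxcl10, while others were not. As log2 differences from the control mean, control 44 stood at 1.57, 0.74 and 1.21 for these 3, control 9 at -1.30, -0.98 and -0.84, and BDS 7 at -1.66, -0.63 and -1.54. In the same order, control 5 stood at -0.29, -0.64 and 0.73, control 13 at 0.66, 0.55 and -0.45, and BDS 55 at -0.06, 0.49 and -1.01. Of 21 pairs among the 7 genes, 3 had a Pearson correlation at an unadjusted permutation p under 0.05 and 0 passed after Benjamini-Hochberg adjustment. The pair of Ccl2 and Cxcl10 was not among the 3 (r = 0.47, permutation p = 0.12, adjusted p = 0.52). For Ccl2 and Ccl12, r was 0.64 and Spearman's rho 0.70 over 12 samples (permutation p = 0.023 and 0.015; adjusted p = 0.16 and 0.15), and r was 0.64 without control 44 and BDS 43, the samples farthest from the median of Ccl2. Within groups r was 0.87 in controls and 0.32 in BDS (exact permutation p = 0.022 and 0.63). For Ccl12 and Cxcl10, r was 0.67 and rho 0.50 (permutation p = 0.017 and 0.10; adjusted p = 0.16 and 0.49), and r fell to 0.16 without control 44 and BDS 7, on which the relation therefore rests. Within groups that r was 0.69 in controls and 0.71 in BDS (exact permutation p = 0.14 and 0.15). For Ccl7 and Mif, r was 0.71 and rho 0.73 (permutation p = 0.0097 and 0.0098; adjusted p = 0.16 and 0.15), and r was 0.40 without BDS 25 and control 54. Within groups it was 0.96 in controls and 0.51 in BDS (exact permutation p = 0.0056 and 0.31). Every value is divided by the factor of its sample, which pairs of genes share.

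**Figure D4:**
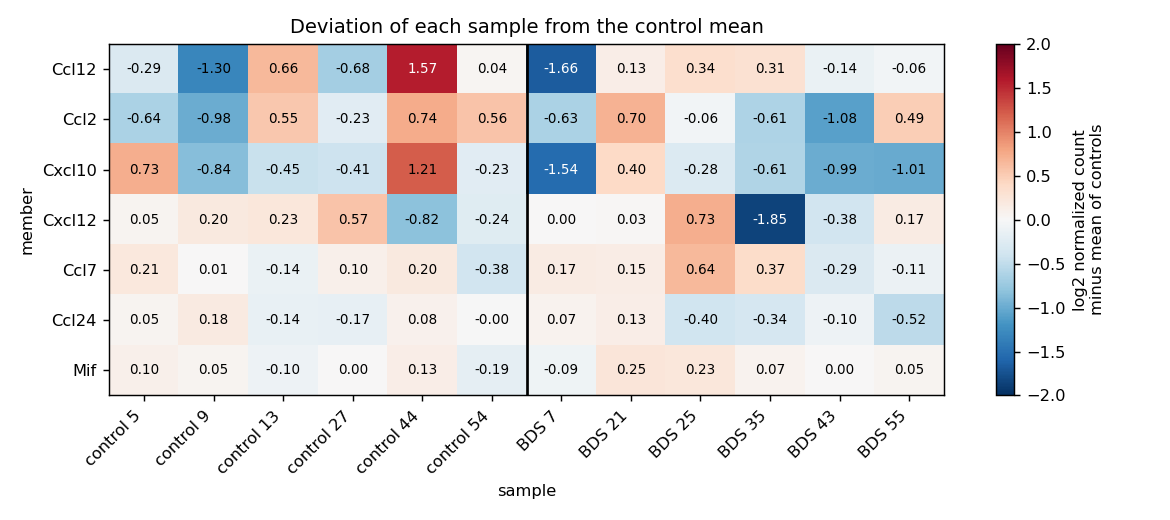
Log2 normalized count of each tested gene (rows) in each of the 12 samples (columns, controls left of the black line) minus the mean of the 6 controls, with the value printed in each cell. Control 44 is high for Ccl12 (1.57) and Cxcl10 (1.21), BDS 7 is low for both (-1.66 and -1.54), and Mif stays within 0.25 of the control mean.

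Of 356 other panel genes, the one most like Ccl12 over the 12 samples was Ccl4 (Spearman rho = 0.85), also a CC ligand, followed by Ccl25 (0.77). Ccl4 was 4102 in control 44, 316 in control 9 and 338 in BDS 7, so the same samples were at its ends. Without control 44 and BDS 7 the rho with Ccl12 was 0.75 over 10 samples, and within groups it was 0.83 in controls and 0.37 in BDS. Ccl3, another CC ligand, was 9723 in control 44 and 643 in BDS 7. The genes most like Mif were Cd14 (0.81), a co-receptor for bacterial lipopolysaccharide, and Il10 (0.80), which was under background in 7 of the 12 samples, and those most like Ccl24 were Tnfsf8 (0.81) and Abcb10 (0.73). These are descriptions over samples that share depth and scaling, picked as the highest of 356 rank correlations for each gene and not tested. Pearson's r on log2 counts was 0.89 (Ccl4) and 0.68 (Ccl25) for Ccl12. It was 0.56 (Cd14) and 0.65 (Il10) for Mif, and 0.67 (Tnfsf8) and 0.61 (Abcb10) for Ccl24. Control 44 also stood apart for Prf1 (perforin), at 325 normalized counts against 51.7 to 105 in the other samples, and for S100a9, at 94.7 against 5.54 to 15.2. Both were singled out after their values were seen. Because of Prf1, the summed level of the 4 NK cell markers on the panel was highest there (382 against 121 to 173 in the other controls and 138 to 183 in BDS), while Klrk1 and Ncam1 of that list (37.3 and 6.70) were lowest of the controls. The part of other cells in the chemokine counts of control 44 was not tested.

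**Figure D5:**
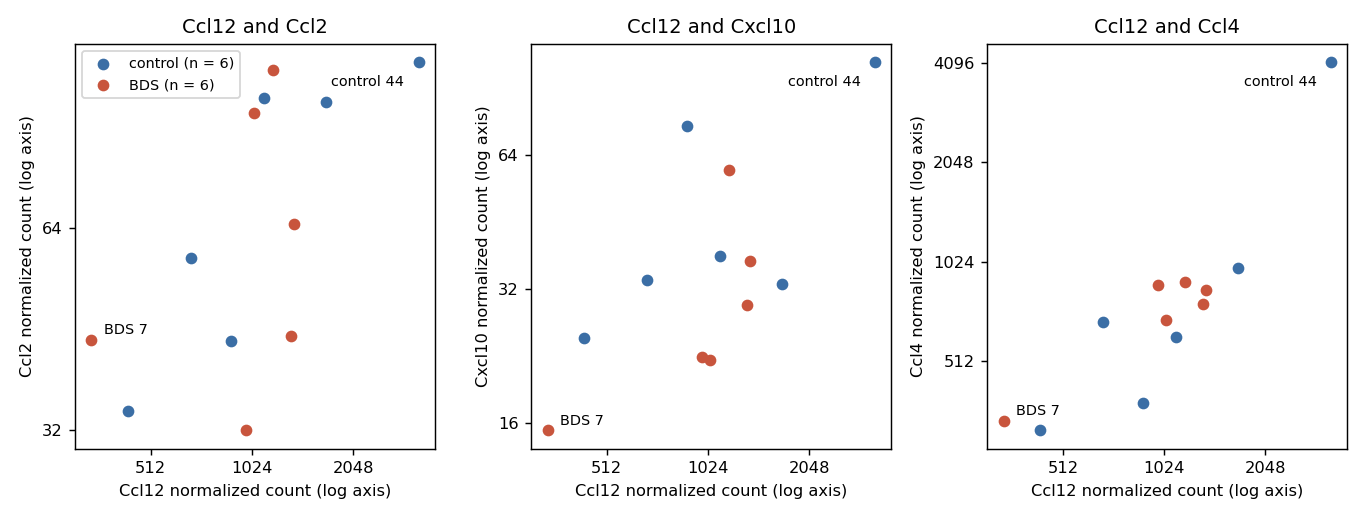
Normalized count of Ccl12 (horizontal axis) against Ccl2, Cxcl10 and Ccl4 (vertical axes), all on log scales, with controls in blue and BDS in red. Control 44 is at the upper right of all 3 panels, and BDS 7 has the lowest Ccl12 (341).

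The receptors, the other ligands and the factors known to induce chemokine genes were described from 4 lists. Of 48 genes tested on these lists, 9 were at an unadjusted p under 0.05 (18.8%), all lower in BDS, against 11.5% of the panel lower and 0.84% higher, and 0 passed the adjusted threshold. Receptors of the listed ligands had 6 genes above background, of which 1 was lower at an unadjusted p under 0.05 and 0 were higher, and their median log2 fold change was -0.17 (-0.10 over the panel). That gene was Ccr2, at 377 ± 76 in controls and 292 ± 73 in BDS (SD, n = 6; log2 fold change -0.36 ± 0.17 SE, adjusted p = 0.38). Cxcr3, the receptor of Cxcl9 and Cxcl10, and Cxcr2 were above background in 0 of 12 samples. Of the 10 other chemoattractant receptors, 3 were lower and 0 higher (median -0.16), with the smallest p for Ccr6, the receptor of Ccl20, at 18457 ± 309 and 15955 ± 1470 (SD, n = 6; adjusted p = 0.25).

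Other chemokine ligands were mostly at background. Of 18 on the panel, 5 were tested (Ccl3, Ccl4, Ccl6, Ccl9 and Ccl25), with 0 of 5 at an unadjusted p under 0.05 and a median log2 fold change of -0.11. The smallest p was that of Ccl9, at 19.7 ± 1.8 in controls and 25.8 ± 6.3 in BDS (SD, n = 6). Its log2 fold change was 0.36 ± 0.18 (SE, adjusted p = 0.40). Ccl9 was near background, above it in 10 of 12 samples, and the scaled limit was 24.5 to 30.8 in BDS 21, BDS 25 and BDS 55.

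Among inducers of chemokine transcription, 27 were tested, and at an unadjusted p under 0.05 lower levels were found for 5 and higher levels for 0 (median log2 fold change -0.12). The panel had 11.5% lower at that p, and 3.92% with TMM scaling. The smallest p was that of Il4ra, the receptor chain for interleukin-4, at 1071 ± 173 and 798 ± 106 (SD, n = 6; adjusted p = 0.17). Others of the 5, named after their values were seen, were Tlr3, a sensor of double-stranded RNA, Ifnar1, a chain of the type I interferon receptor, and Nfkb1. Tlr3 was at 4793 ± 402 in controls and 3657 ± 742 in BDS (SD, n = 6; log2 fold change -0.39 ± 0.12 SE, adjusted p = 0.25). The interferon genes Ifng and Ifnb1, and Il4, were above background in 0 of 12 samples. With TMM scaling 4 of the 48 genes were at an unadjusted p under 0.05 in place of 9, near the panel's 8.96%. Leaving out BDS 21, BDS 25 and BDS 55 gave 5, beside 20 of 362 panel genes.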

How the data were processed

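Raw barcode counts of 573 probes (545 genes, 14 housekeeping, 8 negative and 6 positive controls) were taken as deposited, with no normalization. A second deposited table holds normalized scores, rounded. Per the labels' design text, positive-control and housekeeping probes set their scale. That deposited table also gives group means, a percent above background, a ratio (fold) and an unadjusted p-value. Counting software: not given in the sources used here.

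Each sample's factor was its geometric mean over Alas1, Gapdh, Oaz1, Polr1b, Sdha and Tbp, relative to that of all samples, and divided its counts. Genes above background (negative-control mean plus 2 SD) in at least 40% of samples (5 of 12), 357 in all, were compared with edgeR 4.0.16 (quasi-likelihood, R 4.3.3, no covariates, Benjamini-Hochberg adjustment, threshold 0.05); SE is the fold change over the root of F. DESeq2 1.42.0 and limma 3.58.1 served as alternatives. Correlations used 100000 permutations, or all 720 orderings within a group.

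The members and lists were chosen with earlier results of these data known. Named were all members, the gene of smallest p per list and any past the threshold, the 2 genes most like each of the 3 members of highest mean, and per marker list the genes above background in no sample. The file names no genome build. Some genes of the lists are not reported here.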

Additional observations from a re-analysis of the deposited data

Results flagged for a closer look

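Among 18 combinations of gene and group, 1 sample stood far from the other 5 of its group. Ccl12 was 341 normalized counts in BDS 7, against 982 in the next lowest BDS sample, and this gap was 0.626 of the range of the group, just above the critical value of 0.625. Chance alone sets a sample this far apart in about 1 of 20 groups.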

How the results depend on the processing

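The 7 tested genes were refitted under up to 24 alternatives each, 165 combinations in all, of which 0 passed the adjusted threshold and 160 kept their direction. The sign turned in the other 5: Ccl7 with background subtracted (-0.047), Mif without BDS 21, BDS 25 and BDS 55 (-0.0067), Cxcl12 without control 27 (0.0023) or BDS 35 (0.070), and Ccl12 without control 44 (0.11). With each sample left out in turn, Cxcl12 ran from -0.33 to 0.070 and Ccl12 from -0.54 to 0.11. The cause was not tested. The count of the 7 at an unadjusted p under 0.05 was 0 (panel 44 of 357). It became 1 with DESeq2 and housekeeping size factors (panel 46) and 1 with background subtracted (panel 49). Without BDS 21, BDS 25 and BDS 55 it was 2 (Cxcl10 and Ccl2, panel 20 of 362). With each sample left out it was 0 to 1 (panel 26 to 95). For the pathway lists the count of 9 (panel 44 of 357) became 4 with TMM (panel 32), 4 with DESeq2 and its own size factors (panel 27) and 5 without those 3 samples (panel 20 of 362), and was 6 to 13 with each sample left out (panel 26 to 95). The 13 and the 95 (of 351) were without BDS 7, a fit in which edgeR's adjusted p was under 0.05 for 4 panel genes and for 0 of the 7. Genes above background were 7 under both other background limits and with each sample left out, and 4 where every sample had to be above. Low counts limit Ccl7, Cxcl9, Cxcl10, Cxcl12 and Cxcl13. No paired analysis was possible because the groups share no replicate numbers.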
